A study of Mus musculus with 12 samples.

Results

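Inflammasomes are protein complexes that assemble in the cytosol when a sensor recognises microbes or cell damage. A sensor recruits the adaptor encoded by Pycard (ASC), the adaptor clusters pro-caspase-1, and active caspase-1 matures interleukin-1β and interleukin-18 and cuts gasdermin D, whose freed end makes pores in the plasma membrane and can end in a lytic death called pyroptosis. In the colon, Nlrp6 is known as a sensor of epithelial cells, Nlrp3 mainly of myeloid cells, and caspase-11, encoded by Casp4 in the mouse, as a receptor of cytosolic bacterial lipopolysaccharide that cuts gasdermin D directly.

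The 10 genes described here are the sensors Nlrp3, Nlrp6 and Aim2, the adaptor gene Pycard, the inflammatory caspase genes Casp1 and Casp4, and the gasdermin genes Gsdmd, Gsdmc2, Gsdmc3 and Gsdmc4. They were taken by symbol from a set drawn up with earlier results of these data known, with no threshold on their values, and all 10 were found among the 17734 genes of the expression table. All 10 were also among the 15315 genes that entered the tests, those averaging 0.1 FPKM or more. Nlrp3 passed that filter only through the colitis mice. Its group mean was 0.507 FPKM there and 0.0667 to 0.0833 FPKM in the other groups, so its tests are not independent of the filter. FPKM is a level scaled for transcript length and library depth, so genes may be set side by side on it.

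The samples were colorectal tissue of 12 adult male C57BL/6 mice, named rectum in the study's methods, divided into 4 groups of 3. Normal mice drank water, and colitis mice drank dextran sulfate sodium (DSS), a polymer that injures the bowel lining, for 7 days. Normal mice receiving BBR drank water and colitis mice receiving BBR drank DSS, and both got berberine (BBR), a plant alkaloid, by gavage. The labels give the BBR treatment as 7 days in one field and 6 days in another, and the mice carried no transgene named in the labels. By the labels, the normal groups each hold the numbers 1, 3 and 4, the colitis group 1, 2 and 4, and the colitis group with BBR 2, 3 and 4.

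The mouse numbered 4 stood apart in every group, with a column total of 482194 to 504337 FPKM against 696286 to 765876 FPKM in the mice numbered 1 to 3. Genes with 1 annotated transcript had low values that fell on steps, from which the worth of 3 reads on a given transcript could be estimated. The steps were most regular with 25 to 75 bases taken off the transcript length in the mice numbered 4 and with 225 to 300 bases in the others. Each group holds 1 such mouse, and values within each of the 2 sets are given beside results that differ between them. Epithelial markers (8 genes, all detected) summed to 6780 to 13200 FPKM over the 12 mice. The neutrophil markers summed to 263 to 708 FPKM in normal mice and 630 to 4230 FPKM in colitis mice, the macrophage and monocyte markers to 226 to 312 FPKM and 294 to 1000 FPKM, and the smooth muscle markers to 2020 to 3620 FPKM and 92.8 to 812 FPKM. All 12 neutrophil markers were above 0 in colitis mice, while S100a8, Ngp and Fpr1 were at 0 in every normal mouse. In such bulk tissue, fewer cells of a type and less RNA per cell cannot be told apart.

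Gsdmc2, Gsdmc3 and Gsdmc4 are neighbours on mouse chromosome 15, beside the related Gsdmc, and their values rest on stretches of sequence that tell them apart. Over the coding sequences of the GENCODE M21 annotation (GRCm38), Gsdmc2 and Gsdmc3 were identical at 1398 of 1440 aligned bases (97.1%), and Gsdmc4 at 93.8% with each. Of all 50-base windows, the read length in the study's methods, 48.5% in Gsdmc2, 46.9% in Gsdmc3 and 39.0% in Gsdmc4 also occur in another gene. No such window was shared for Nlrp3, Nlrp6, Casp1, Casp4 or Gsdmd, 0.932% were for Aim2, and 11.8% were for Pycard, with Gm45205 and Mvp. Reads from the shared windows had to be divided between the genes by RSEM, so the split between the Gsdmc genes is less certain than their sum. The most alike stretch is printed first, since a read from it cannot be placed: coding bases 1 to 75, the same letters in the 3 genes. The least alike stretch of 75 bases follows, coding bases 788 to 862 of Gsdmc2 and Gsdmc3 and 794 to 868 of Gsdmc4, with the 19 positions at which the 3 genes are not all identical in capitals.

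Gsdmc2, Gsdmc3 and Gsdmc4, bases 1 to 75: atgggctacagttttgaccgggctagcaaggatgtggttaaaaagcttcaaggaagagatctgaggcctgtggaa

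Gsdmc2, bases 788 to 862: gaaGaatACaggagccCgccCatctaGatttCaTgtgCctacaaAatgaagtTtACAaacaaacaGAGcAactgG

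Gsdmc3, bases 788 to 862: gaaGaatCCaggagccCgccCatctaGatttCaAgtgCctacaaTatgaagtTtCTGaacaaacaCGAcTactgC

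Gsdmc4, bases 794 to 868: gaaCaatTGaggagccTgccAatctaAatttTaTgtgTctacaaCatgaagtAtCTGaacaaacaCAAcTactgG

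In normal mice Gsdmc4 and Gsdmc2 stood highest of the 10 and Nlrp3 lowest. Mean levels were 729 FPKM for Gsdmc4, 225 FPKM for Gsdmc2, 127 FPKM for Gsdmd, 122 FPKM for Gsdmc3 and 112 FPKM for Casp1, followed by 91.0 FPKM for Nlrp6, 60.3 FPKM for Pycard, 25.5 FPKM for Aim2, 24.5 FPKM for Casp4 and 0.0667 FPKM for Nlrp3. Only 148 of the tested genes had a higher normal mean than Gsdmc4, and 15154 had a higher one than Nlrp3. In this order Gsdmd overlapped with Gsdmc3 between mice, Gsdmc3 with Casp1, Casp1 with Nlrp6 and Aim2 with Casp4, and these neighbours were not told apart in level.

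**Figure D1:**
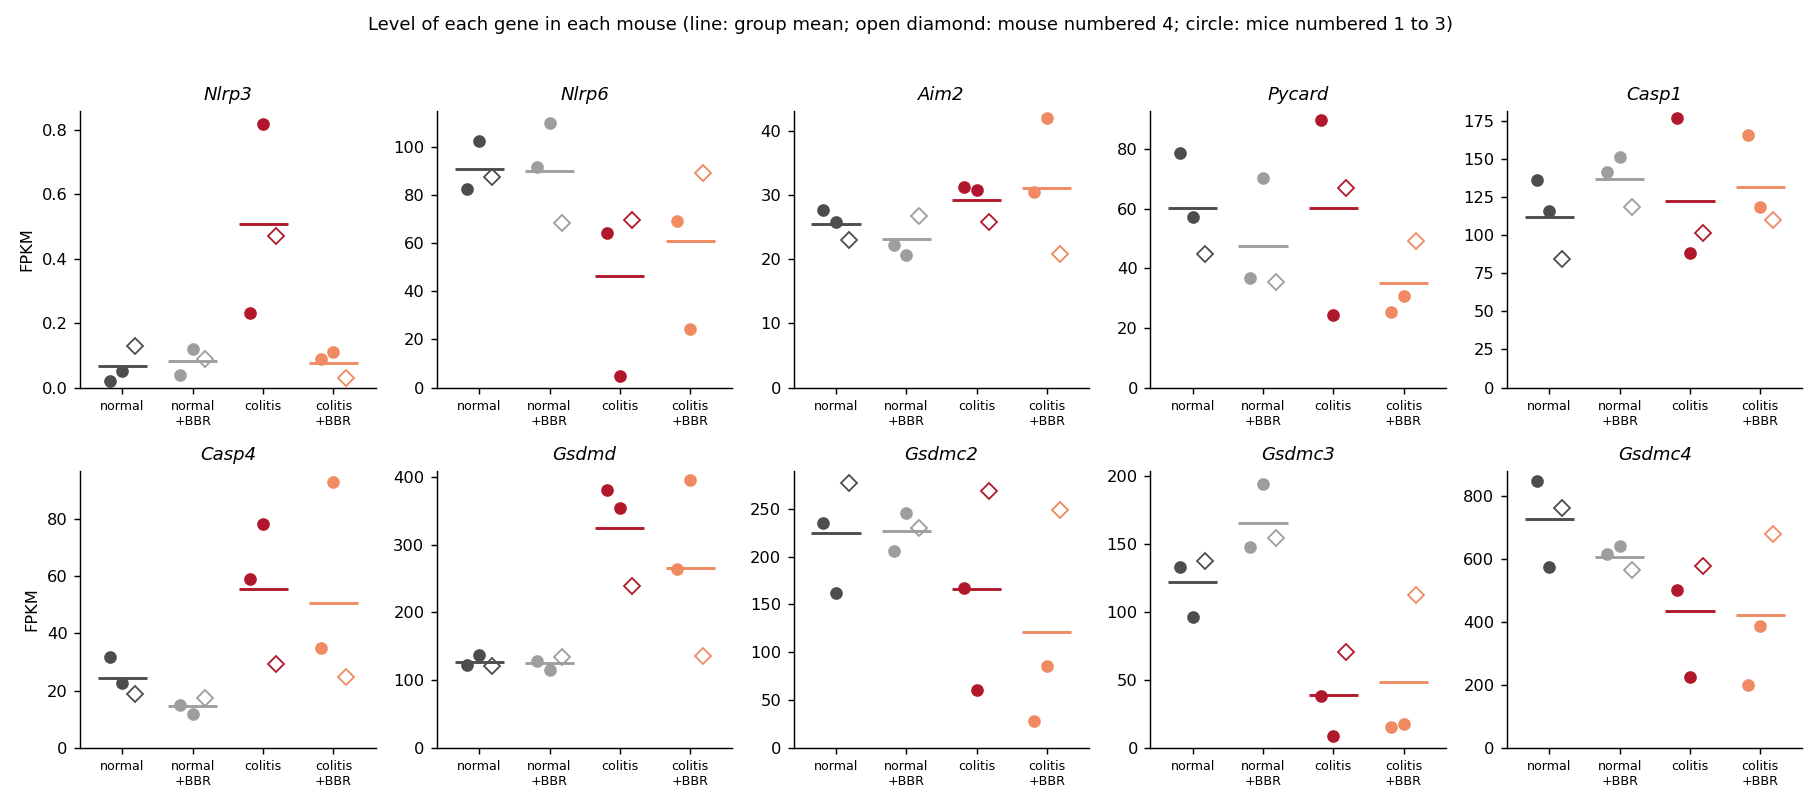
The FPKM of the 10 genes (vertical axes from 0, one panel per gene) in each of the 12 mice, by group on the horizontal axis, with the group mean as a line and mice numbered 4 as open diamonds. Colitis mice lie above all normal mice for Nlrp3 and Gsdmd and below all of them for Nlrp6 and Gsdmc3.

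The first comparison, colitis against normal, asks which parts of the pathway differ in message after 7 days of DSS. Nlrp3, Casp4 and Gsdmd stood higher in colitis mice and Gsdmc3 lower, with smaller or more scattered differences in the other 6 genes. No member passed the adjusted limit of 0.05 of limma's test over all 15315 genes, a limit that 165 genes (1.08%) passed. At an unadjusted P of 0.05 or less, the limit in the study's methods, 4 of the 10 members qualified, 3 higher (Nlrp3, Casp4, Gsdmd) and 1 lower (Gsdmc3), against 21.4% of all tested genes. With 1 mouse left out Nlrp3 and Gsdmd qualified each time, but the number of members was 2 without colitis mouse 2 or without normal mouse 4 (neither Casp4 nor Gsdmc3) and 6 without colitis mouse 4 (also Nlrp6 and Gsdmc4, both lower). Over all tested genes, the number at this limit went from 3280 to 2260, 2394 and 4807 in these 3 fits. With all mice, 26% of the genes at this limit were higher in colitis mice, a split that was 49.5% with quantile normalization and 53.7% with each mouse centred on its median. Colitis and normal mice did not overlap for 4 members, against 29.3% of all tested genes, so neither share can be read as particular to these genes. The median log2 difference was −0.04 over the members and −0.32 over all tested genes.

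Nlrp3, the sensor that answers to membrane damage and potassium loss, was barely detected without colitis. Its values were 0.02, 0.05 and 0.13 FPKM in normal mice 1, 3 and 4, and 0.23, 0.82 and 0.47 FPKM in colitis mice 1, 2 and 4. Every colitis mouse lay above every normal mouse, and the lowest normal values were at or under the worth of 3 reads, 0.0376 to 0.0532 FPKM over the 12 mice. By that estimate the 3 colitis values stand for about 13.4 to 48.6 reads and the 3 normal values for 1.2 to 9.5 reads. On the log2(FPKM + 0.1) scale the difference was 1.80 (standard error, SE, 0.45, limma adjusted p = 0.0699), and it was 2.04 in the mice numbered 1 to 3 and 1.31 between those numbered 4. Its size depends on the constant added before taking logs, with 0.48 at 1 FPKM and 2.86 at 0.01 FPKM. Summed macrophage and monocyte markers had a median of 252 FPKM without and 397 FPKM with colitis, and neutrophil markers one of 321 and 1930 FPKM. Both overlapped between the groups. The 7 general leukocyte markers did not, at 56.6 to 66.6 FPKM in sum without and 67.8 to 211 FPKM with colitis. These 3 sums were highest in colitis mouse 2, as was Nlrp3, and their part in the difference was not tested.

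Nlrp6, the sensor of colonic epithelium, showed the opposite order with a wide scatter. Normal mice 1, 3 and 4 had 82.63, 102.75 and 87.62 FPKM. Colitis mice 1, 2 and 4 had 64.29, 4.87 and 69.92 FPKM. The groups did not overlap, but 1 colitis mouse was far below the other two, which lay nearer to the normal range. The log2 difference of −1.69 (SE 0.83, limma adjusted p = 0.255) was −0.43 without colitis mouse 2, and it was −2.37 in the mice numbered 1 to 3 and −0.33 between those numbered 4. Summed epithelial markers were 9410 to 13200 FPKM in the normal group and 12800, 9630 and 9120 FPKM in colitis mice 1, 2 and 4. Colitis mouse 2 also had more goblet cell markers (77000 FPKM, against 15500 to 36400 FPKM in the normal group and 20000 and 11300 FPKM in the other colitis mice) and more surface colonocyte markers (30300 FPKM, against 8770 to 20300 FPKM and 18800 and 7020 FPKM). The part of these cell types in the Nlrp6 difference was not tested.

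Aim2, the sensor of cytosolic double-stranded DNA, and Pycard, the common adaptor gene, had overlapping groups. Aim2 had 27.69, 25.74 and 22.94 FPKM in the normal group and 31.21, 30.77 and 25.77 FPKM in the colitis group, a log2 difference of 0.20 (SE 0.24, limma adjusted p = 0.616). Pycard had 78.95, 57.13 and 44.89 FPKM in the normal group and 89.73, 24.23 and 66.92 FPKM in the colitis group, a log2 difference of −0.16 (SE 0.46, limma adjusted p = 0.85). Colitis mice held both the highest and the lowest Pycard value, and the lowest was again in mouse 2. For Pycard the sign of the difference turned with the set of mice, −0.52 in those numbered 1 to 3 and 0.57 between those numbered 4, and it was 0.18 with each mouse centred on its median.

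Casp1 and Casp4 lie side by side on mouse chromosome 9 and encode related inflammatory caspases, and of the pair Casp4 had the larger difference. Casp1 had 135.81, 115.52 and 84.37 FPKM in the normal group and 176.85, 88.33 and 101.39 FPKM in the colitis group, a log2 difference of 0.09 (SE 0.29, limma adjusted p = 0.87). Casp4 had 31.71, 22.79 and 18.86 FPKM in the normal group and 59.18, 78.24 and 29.48 FPKM in the colitis group. The Casp4 groups overlapped, since colitis mouse 4 lay below normal mouse 1, while colitis mice 1 and 2 lay above every normal mouse. Its log2 difference was 1.10 (SE 0.46, limma adjusted p = 0.201), with 1.34 in the mice numbered 1 to 3 and 0.64 between those numbered 4. The difference between the 2 genes' changes was not tested.

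The RefSeq promoters of this gene pair (GRCm38.p6, 250 bases before to 50 after the start, plus strand) are shown so that the neighbours can be set side by side. Capitals mark matches to the κB motif, the site class bound by NF-κB, searched on both strands. The Casp4 promoter has 3 matches, some overlapping each other, and the Casp1 promoter has 0. Of the other members with a promoter in the table, Nlrp3 has 1 match in 1 of its 2 entries, and Nlrp6, Aim2, Pycard and Gsdmc3 have none. A κB match occurs in 8.46% of 32851 promoters in the table. Neither promoter has the interferon-stimulated response element core (3.44% of promoters) or the STAT motif TTCNNNGAA (8.3%). A match is a string of letters and no evidence of binding.

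Casp1, chr9:5298267-5298566: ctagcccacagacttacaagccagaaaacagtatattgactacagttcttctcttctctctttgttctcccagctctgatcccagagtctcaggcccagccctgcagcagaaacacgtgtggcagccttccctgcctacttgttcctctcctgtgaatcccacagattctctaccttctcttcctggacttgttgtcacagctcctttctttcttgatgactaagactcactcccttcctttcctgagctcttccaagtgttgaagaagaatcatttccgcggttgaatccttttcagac

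Casp4, chr9:5308599-5308898: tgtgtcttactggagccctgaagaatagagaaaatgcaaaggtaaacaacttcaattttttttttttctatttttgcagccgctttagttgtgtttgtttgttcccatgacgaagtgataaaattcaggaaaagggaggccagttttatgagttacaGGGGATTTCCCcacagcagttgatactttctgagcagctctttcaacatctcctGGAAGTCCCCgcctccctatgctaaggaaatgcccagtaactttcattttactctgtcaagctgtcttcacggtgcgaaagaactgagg

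Gsdmd, which encodes the pore-forming substrate shared by caspase-1 and caspase-11, had narrowly spread values in normal mice and higher ones in every colitis mouse. Normal mice 1, 3 and 4 had 122.62, 137.26 and 121.12 FPKM. Colitis mice 1, 2 and 4 had 380.14, 354.31 and 239.02 FPKM. The groups did not overlap, and the mean was 2.56 times higher (324 ± 75.1 against 127 ± 8.92 FPKM, SD, n = 3 each). The log2 difference was 1.33 (SE 0.34, limma adjusted p = 0.0719), with 1.50 in the mice numbered 1 to 3 and 0.98 between those numbered 4. It passed the adjusted limit with a term for the mice numbered 4 (0.023), in the mice numbered 1 to 3 alone (0.0317) and in a fit of these 2 groups alone (0.0347), and Nlrp3 passed with the same term (0.032) but not in the other fits (0.0671 and 0.1). The exact permutation test of 3 mice against 3 gave its smallest possible two-sided p of 0.1 for Gsdmd, Nlrp3, Nlrp6 and Gsdmc3.

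**Figure D2:**
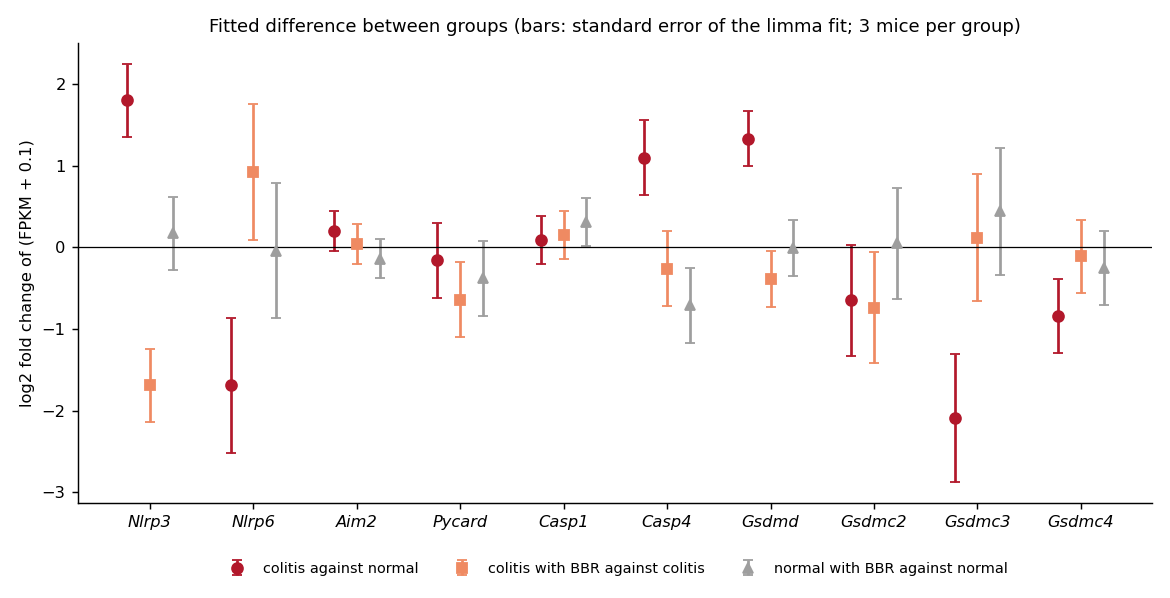
The log2 difference of FPKM + 0.1 (vertical axis) of each gene in 3 comparisons, with bars for the SE of the fit over 12 mice. The colitis points of Nlrp3 (1.80), Casp4 (1.10) and Gsdmd (1.33) lie above 0 and that of Gsdmc3 (−2.09) below, and the comparisons share groups: the colitis mice enter both the first and the second.

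Gsdmc2, Gsdmc3 and Gsdmc4 encode gasdermin C paralogs of the gut epithelium, and all 3 had lower means in colitis mice, with the widest gap in Gsdmc3. Gsdmc3 had 133.39, 96.19 and 137.26 FPKM in normal mice 1, 3 and 4, and 38.09, 8.39 and 70.64 FPKM in colitis mice 1, 2 and 4. No colitis mouse reached the normal range, and colitis mouse 2 was lowest here as well. The log2 difference was −2.09 (SE 0.78, limma adjusted p = 0.167), with −2.65 in the mice numbered 1 to 3, −0.96 between those numbered 4 and −1.22 without colitis mouse 2. The means were 122 ± 22.7 FPKM in normal mice and 39.0 ± 31.1 FPKM with colitis (SD, n = 3 each).

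The other gasdermin C genes overlapped between the groups. Gsdmc2 had 234.90, 162.13 and 277.31 FPKM in the normal group and 167.38, 60.69 and 269.22 FPKM in the colitis group, a log2 difference of −0.65 (SE 0.68, limma adjusted p = 0.565). Gsdmc4 had 848.91, 576.51 and 762.39 FPKM in the normal group and 501.13, 224.15 and 578.82 FPKM in the colitis group, a log2 difference of −0.84 (SE 0.45, limma adjusted p = 0.29). Colitis mouse 4 was within the normal range for both, and colitis mouse 2 was lowest for both. Without mouse 2 the differences were −0.05 for Gsdmc2 and −0.42 for Gsdmc4. In the mice numbered 1 to 3 they were −0.95 and −1.06, and between those numbered 4 they were −0.04 and −0.40. The sum of the 3 genes was 1080 ± 210 FPKM in normal mice and 640 ± 318 FPKM with colitis (SD, n = 3 each).

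Within that sum, the share of Gsdmc3 lay in a narrow range in normal mice. It was 11.0% to 11.7% in normal mice, 2.9% to 7.7% in colitis mice, 15.2% to 18.0% in normal mice receiving BBR and 3.5% to 10.8% in colitis mice receiving BBR. Normal mice receiving BBR thus lay above every other mouse and both colitis groups lay below every normal mouse. Gsdmc4 held most of the sum in every mouse, from 59.4% to 82.2%, and Gsdmc2 held 11.6% to 29.3%. These shares were examined after the values were seen and rest on the division of shared reads described above, so they are given with no test.

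**Figure D3:**
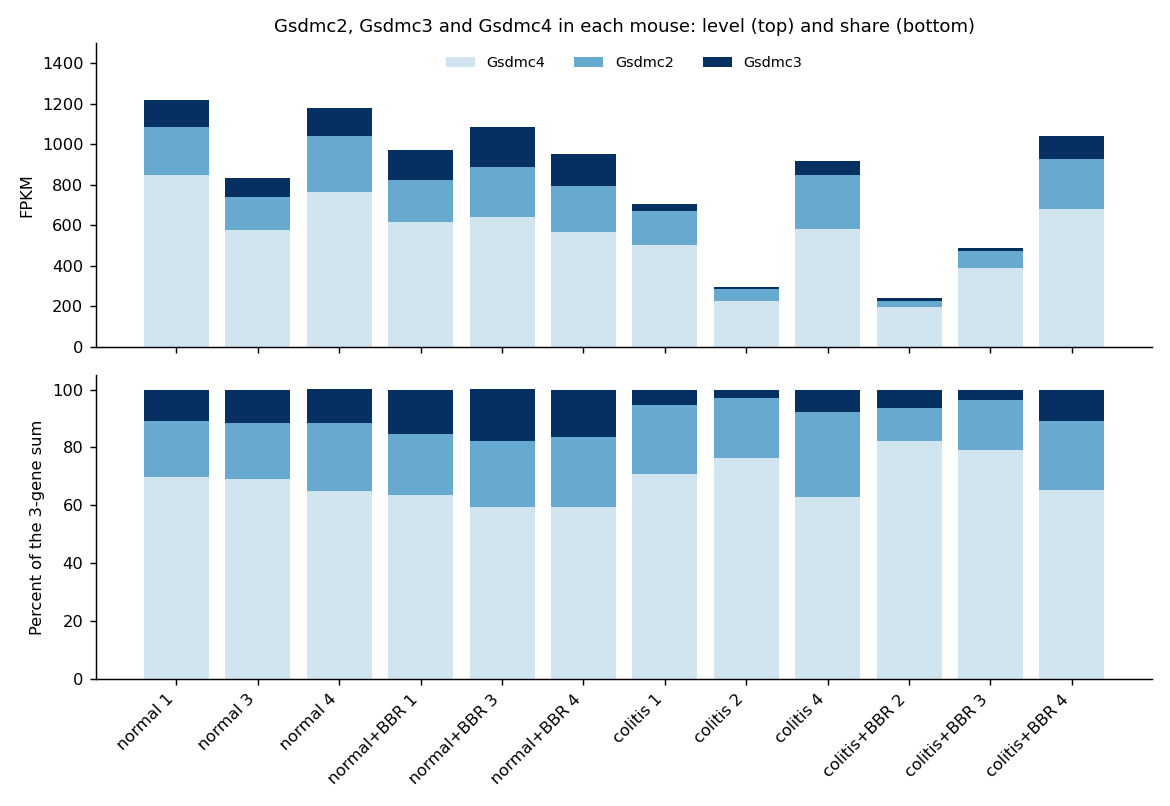
Stacked FPKM of Gsdmc4, Gsdmc2 and Gsdmc3 in each mouse (top, axis from 0) and their percent of the sum of the 3 genes (bottom), by group and mouse number. Gsdmc3 takes 11.0% to 18.0% in the 6 mice without DSS and 2.9% to 10.8% in the 6 mice with DSS.

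The second comparison, colitis with BBR against colitis, asks what BBR changed in mice drinking DSS, and it shares the colitis mice with the first. No member passed the adjusted limit, and neither did any other gene (0 of 15315, 0%, by limma; 58 genes without mouse 3 of the BBR group, no member among them), while 978 genes (6.39%) reached an unadjusted P of 0.05 or less. Of the 10 members only Nlrp3 reached it, joined by Pycard without colitis mouse 2, by Gsdmd without mouse 3 of the BBR group and by Gsdmc2 without mouse 4 of that group, each lower with BBR. In these 3 fits, 909, 1653 and 1662 of all tested genes reached it. The groups did not overlap for 1 member, Nlrp3, against 7.08% of all tested genes. The median log2 difference was −0.18 over the members and −0.09 over all tested genes.

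In colitis mice receiving BBR, Nlrp3 lay at the level of the normal mice. Mice 2, 3 and 4 of that group had 0.09, 0.11 and 0.03 FPKM, against 0.23, 0.82 and 0.47 FPKM in the colitis mice. All 3 lay below every colitis mouse and within the range of the normal mice, at an estimated 2.2 to 6.3 reads. The log2 difference was −1.69 (SE 0.45, limma adjusted p = 0.486), with −1.46 in the mice numbered 1 to 3 and −2.13 between those numbered 4. Macrophage and monocyte markers summed to 162 to 267 FPKM in colitis mice receiving BBR and to 294 to 1000 FPKM in colitis mice, without overlap, and their part in the difference was not tested. Neutrophil markers, at 492 to 2990 FPKM with BBR, overlapped in sum with those of the colitis mice. Gene by gene, 11 of these 12 markers were lower with BBR and 1 higher, with a median log2 difference of −2.04.

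Gsdmd and Casp4 were scattered from the normal range to above every colitis mouse in colitis mice receiving BBR. Gsdmd had 264.18, 394.85 and 135.70 FPKM in mice 2, 3 and 4, a log2 difference of −0.39 against colitis mice (SE 0.34, limma adjusted p = 1), with −0.18 in the mice numbered 1 to 3 and −0.82 between those numbered 4. Casp4 had 34.91, 92.85 and 24.59 FPKM, a log2 difference of −0.26 (SE 0.46, limma adjusted p = 1). Mouse 3 had the highest Casp4 and the highest Gsdmd of all 12 mice, and mouse 4 lay within the normal range for both.

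For the epithelial sensor and the gasdermin C genes, mouse 4 also differed from the other 2 of its group. Nlrp6 had 69.13, 24.19 and 89.29 FPKM in colitis mice receiving BBR, a log2 difference of 0.92 (SE 0.83, limma adjusted p = 1) that was −0.34 without colitis mouse 2. Gsdmc3 had 15.01, 17.25 and 112.85 FPKM, with a log2 difference of 0.12 (SE 0.78), and Gsdmc2 had 27.89, 85.07 and 249.08 FPKM, with −0.74 (SE 0.68). Gsdmc4 had 198.35, 387.28 and 679.46 FPKM, with −0.11 (SE 0.45, limma adjusted p = 1 for all of these). Mice 2 and 3 lay below every normal mouse for the 3 gasdermin C genes and for Nlrp6, and mouse 4 lay within the normal range for each of them. In the mice numbered 1 to 3 the BBR difference was −0.15 for Gsdmc3, −1.05 for Gsdmc2, −0.27 for Gsdmc4 and 1.2 for Nlrp6, and between those numbered 4 it was 0.68, −0.11, 0.23 and 0.35. Smooth muscle markers of mouse 4, at 3930 FPKM, stood in the same way above the 570 and 613 FPKM of the other 2, and their part was not tested. The mouse numbered 4 also had the highest such sum in normal mice (3620 FPKM) and in normal mice receiving BBR (5830 FPKM). In the colitis group it had 801 FPKM, against 92.8 and 812 FPKM in mice 1 and 2.

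Aim2, Pycard and Casp1 overlapped between colitis mice with and without BBR. Aim2 had 30.51, 42.07 and 20.85 FPKM with BBR, and Casp1 had 165.41, 118.57 and 109.65 FPKM, with log2 differences of 0.04 (SE 0.24) and 0.15 (SE 0.29). Pycard had 25.46, 30.69 and 49.26 FPKM, with a log2 difference of −0.64 (SE 0.46, limma adjusted p = 1 for the 3 genes).

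**Figure D4:**
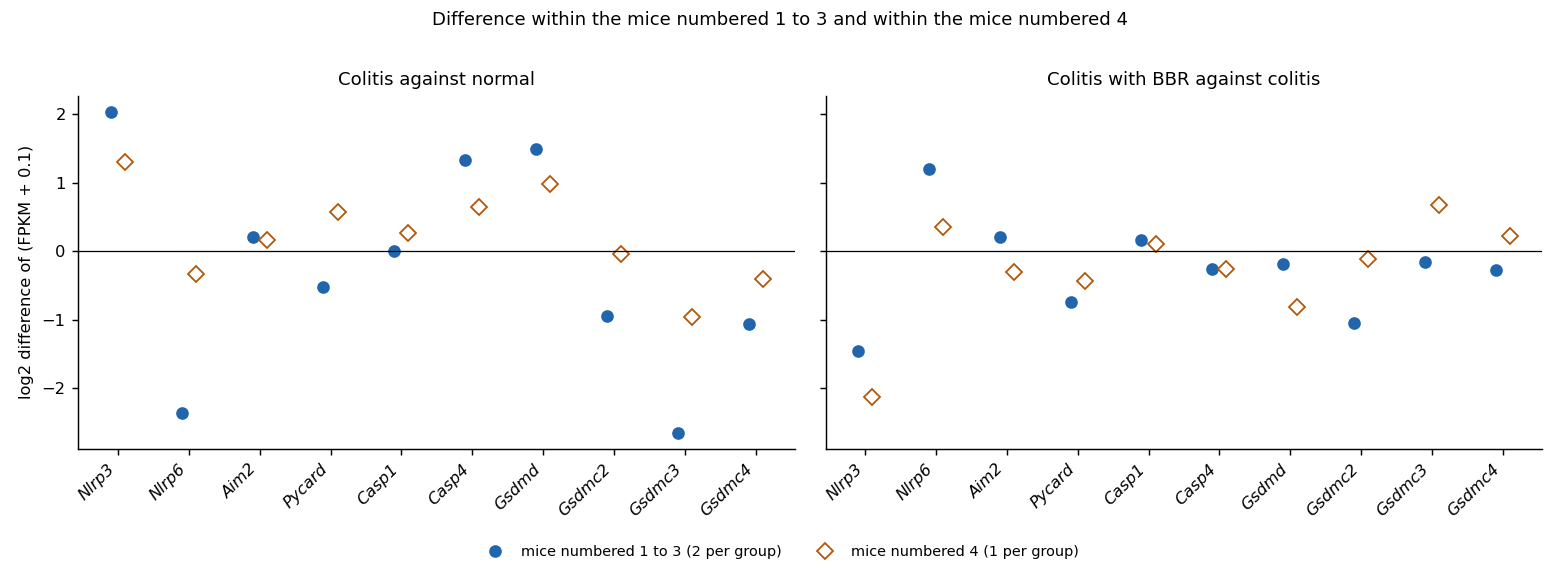
The log2 difference of FPKM + 0.1 (vertical axes) of each gene in the mice numbered 1 to 3 (filled circles, 2 mice per group) and between the mice numbered 4 (open diamonds, 1 per group), for colitis against normal (left) and colitis with BBR against colitis (right). In colitis, Pycard has opposite signs (−0.52 and 0.57), and Nlrp3 and Gsdmd are above 0 in both sets.

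The third comparison, normal with BBR against normal, asks what BBR did without DSS. No member reached even the unadjusted limit, which 208 genes (1.36%) reached, and no gene passed the adjusted limit of limma's test (0 of 15315, 0%). In a fit of these 2 groups alone, 752 genes reached the unadjusted limit, among them Casp4, lower with BBR. The groups did not overlap for 2 members, Casp4 and Gsdmc3, against 9.62% of all tested genes. Casp4 had 14.92, 11.92 and 17.39 FPKM in normal mice 1, 3 and 4 receiving BBR, all below the normal mice, with a log2 difference of −0.71 (SE 0.46) that was −1.01 in the mice numbered 1 to 3 and −0.12 between those numbered 4. Gsdmc3 had 147.62, 194.58 and 154.43 FPKM, all above the normal mice, with a log2 difference of 0.44 (SE 0.78). Differences in the other 8 members were between −0.38 (Pycard) and 0.31 (Casp1). Nlrp3 had 0.04, 0.12 and 0.09 FPKM, Nlrp6 91.59, 109.98 and 68.30 FPKM, and Aim2 22.20, 20.69 and 26.75 FPKM. Pycard had 36.86, 70.51 and 35.38 FPKM and Casp1 141.31, 150.92 and 118.04 FPKM. These sensors, the adaptor gene and Casp1 overlapped with the normal mice in every case. So did the remaining gasdermin genes, with Gsdmd at 128.64, 114.89 and 134.02 FPKM, Gsdmc2 at 206.29, 245.32 and 229.94 FPKM, and Gsdmc4 at 616.26, 642.45 and 564.69 FPKM.

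The interaction of BBR and colitis, the test of whether the BBR difference itself differed between colitis and normal mice, gave no gene past the adjusted limit (0 of 15315, 0%, by limma), with 371 genes (2.42%) at an unadjusted P of 0.05 or less. Among the members Nlrp3 reached the latter, at −1.85 (SE 0.63, limma adjusted p = 1). Its values in normal mice were 0.02 to 0.13 FPKM, near the worth of 3 reads, so a fall with BBR could hardly be seen there. Of the pathway genes listed below, so did Il1a (−1.89), Il18rap (−1.69), Gbp2 (−1.84) and Gbp3 (−1.69), each at a limma adjusted p of 1. In the mice numbered 1 to 3 alone, 0 genes of the cytokine and lipopolysaccharide lists below did, among 519 over all tested genes. With quantile normalization 0 of the cytokine list did, among 457. With the term for the mice numbered 4, 4 cytokine and 3 lipopolysaccharide genes did, among 671.

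Genes around the members were taken as whole lists. Of the other sensors and their helpers, 14 of 16 could be tested, and in colitis mice 7 were higher and 1 lower at an unadjusted P of 0.05 or less, with none past the adjusted limit in the fit without a block. Over all tested genes, 5.56% were higher and 15.9% lower at that unadjusted limit, shares that apply to each list below as well. Zbp1, a sensor of Z-form nucleic acids, had the widest difference, from 28.79 to 39.56 FPKM in normal mice to 156.94 to 266.71 FPKM in colitis mice (log2 difference 2.57, SE 0.62, limma adjusted p = 0.0667). Nlrc4 (0.93), the platform for flagellin sensing, and the NAIP genes Naip1 (0.67), Naip2 (0.62) and Naip5 (0.65) were among those higher at the unadjusted limit (limma adjusted p = 0.145 to 0.198), while the related Naip6 had 0.06 (SE 0.25). Mefv (1.64), which encodes pyrin, and Ifi204 (1.61) were the others. Txnip, a binding partner of thioredoxin, was the lower one (−0.83). The median of the list in colitis was 0.39 against −0.32 over all tested genes. With BBR, Mefv was the one gene of the list below colitis mice at the unadjusted limit in the fit without a block (−1.23, limma adjusted p = 0.723). With quantile normalization 0 genes of the list were, and with the replicate block 2 were. Over all tested genes, 630 and 1376 were lower at that limit in these 2 fits.

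Among the other caspases, 1 of 7, Casp8, was higher at the unadjusted limit and none lower. In the mice numbered 1 to 3 alone 0 were higher, and with the replicate block 3 were. Over all tested genes, 929 and 1144 were higher at that limit in these 2 fits, against 852 in the main fit. Casp8, an initiator caspase that can also cut gasdermins, had 69.79 to 122.24 FPKM in colitis mice and 57.21 to 153.12 FPKM in colitis mice receiving BBR, against 45.22 to 56.68 FPKM in normal mice (log2 difference 0.90 for colitis against normal, SE 0.38, limma adjusted p = 0.203). None of the 5 tested genes among the other gasdermins and Ninj1 reached the unadjusted limit in any comparison in the fit over all mice without a block. Other settings put 1 of the list at that limit in colitis, each higher. It was Gsdma with the term for the mice numbered 4, in the mice numbered 1 to 3 alone or without colitis mouse 4. It was Gsdmc with quantile normalization or median centring, and Gsdma2 with no filter. For BBR in colitis, Gsdma was lower at that limit without mouse 3 of the BBR group. The interaction was negative at that limit for Gsdmc in the mice numbered 1 to 3 alone and for Gsdma2 with no filter. Gsdme, another gasdermin gene, had a log2 difference of −0.11 in colitis (SE 0.35).

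The cytokines and their receptors held the 3 calls past the adjusted limit among the listed pathway genes in the fit without a block, all in colitis mice. Il1b, which encodes the main cytokine that caspase-1 matures, rose from 1.03, 0.24 and 0.49 FPKM in normal mice to 24.35, 32.54 and 11.60 FPKM in colitis mice (log2 difference 5.11, SE 1.01, limma adjusted p = 0.0392). Il1a, the related alarmin gene, rose from 0.15, 0.19 and 0.22 FPKM to 1.89, 3.21 and 1.79 FPKM (3.02, SE 0.55, limma adjusted p = 0.0289). Il18bp, which encodes the soluble inhibitor of interleukin-18, rose from 3.77, 4.93 and 5.25 FPKM to 36.73, 68.78 and 48.75 FPKM (3.41, SE 0.69, limma adjusted p = 0.0439). In all 3 genes every colitis mouse lay above every normal mouse. Leaving out 1 of the 6 mice in turn ended 5 of 6 calls for Il1b and Il1a and 6 of 6 for Il18bp, with limma adjusted p up to 0.177. The exception was colitis mouse 4, without which limma adjusted p was 0.046 for Il1b and 0.0422 for Il1a. The log2 differences stayed at 4.69 to 5.56 for Il1b, 2.77 to 3.17 for Il1a and 3.17 to 3.62 for Il18bp. Calls over all tested genes fell from 165 to between 11 and 77 in the other 5 of these fits, and were 211 without colitis mouse 4. A pseudocount of 0.01 FPKM also ended the 3 calls (0.0569 for Il1b, 0.054 for each of the others), a filter at 1 FPKM those of Il1b (0.0505) and Il18bp (0.0556), and a fit without trend that of Il18bp (0.0515). The summed neutrophil markers given above moved in the same direction, and their part was not tested. At the unadjusted limit 6 of 11 genes of the list were higher, the others being the decoy receptor gene Il1r2 (3.86, limma adjusted p = 0.0533), the alarmin gene Il33 (2.35) and Il18rap (1.36), and 1, Il1rap, was lower (−0.62). The median was 1.36.

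Il18, the gene of the other cytokine that caspase-1 matures, did not reach the unadjusted limit in any comparison. It had 395.30, 229.68 and 171.76 FPKM in the normal group and 469.30, 153.27 and 192.98 FPKM in the colitis group (log2 difference −0.06, SE 0.43, limma adjusted p = 0.948). The groups overlapped, and Il18 stood above Il1b in every mouse, including those with colitis.

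In colitis mice receiving BBR, 5 of the 11 cytokine and receptor genes were lower than in colitis mice at the unadjusted limit and none higher, against 5.2% and 1.19% of all tested genes, with none past the adjusted limit. Il1b had 3.58, 11.22 and 0.29 FPKM, all below the colitis mice (log2 difference −3.06, SE 1.01, limma adjusted p = 0.568). Il1a had 0.42, 1.11 and 0.11 FPKM (−2.19, SE 0.55, limma adjusted p = 0.477), and the other 3 were the receptor genes Il1r1 (−1.25), Il1r2 (−2.78) and Il18rap (−1.44). Il18bp had 27.79, 137.06 and 11.78 FPKM, with mice 2 and 4 below and mouse 3 above every colitis mouse (−0.48, SE 0.69, limma adjusted p = 1). In the mice numbered 1 to 3 and between those numbered 4, the differences were −2.13 and −4.91 for Il1b, −1.69 and −3.17 for Il1a, and 0.30 and −2.04 for Il18bp. Mouse 4 of the group had the lowest Il1b, Il1a and Il18bp, with Il1b within the normal range. At the same limit 9 of 12 macrophage and monocyte markers (median −1.12), 4 of 7 leukocyte markers (−1.22) and 3 of 12 neutrophil markers (−2.04) were lower and none higher, and their part in the cytokine differences was not tested.

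**Figure D5:**
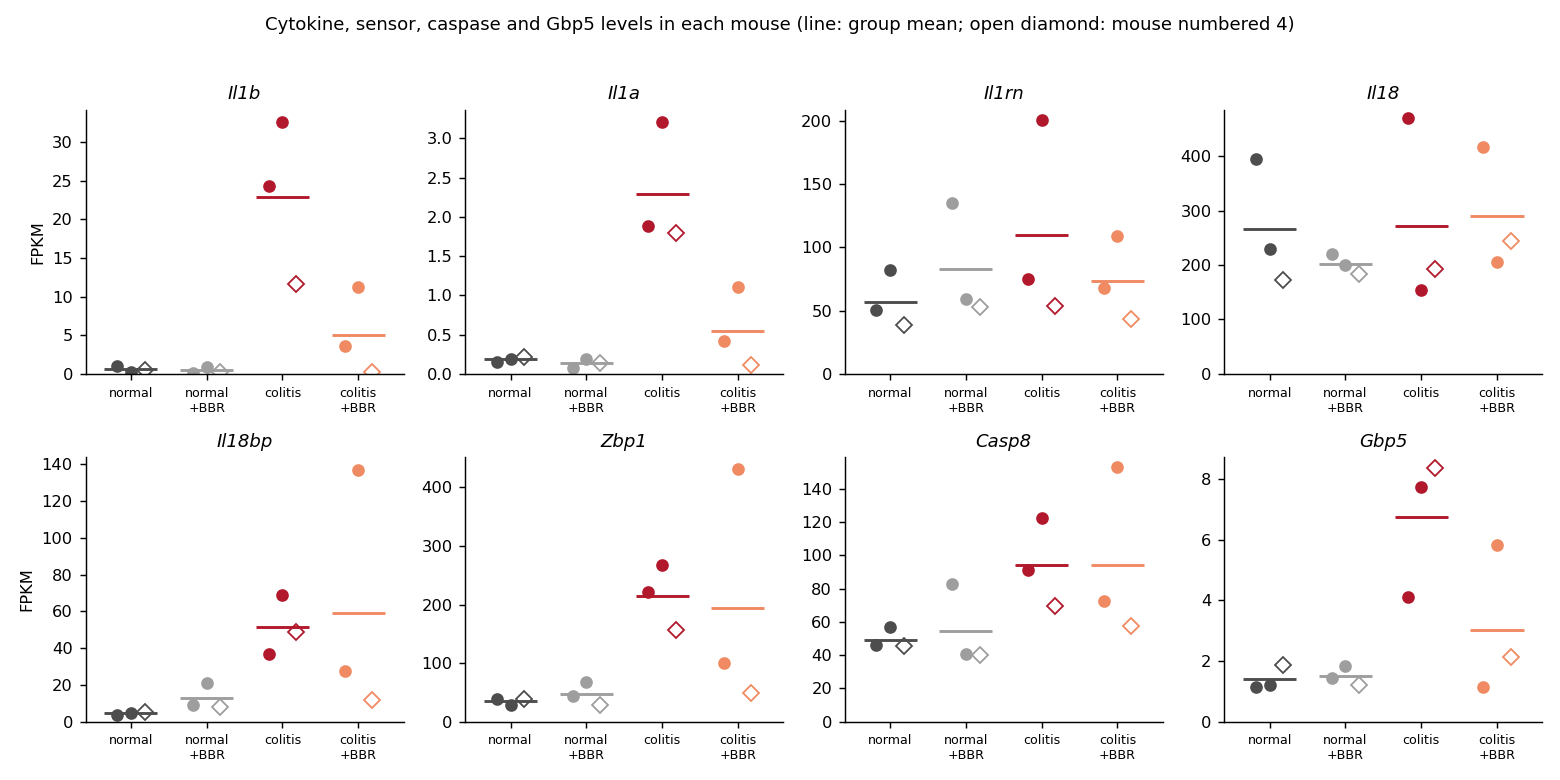
FPKM (vertical axes from 0) of Il1b, Il1a, Il1rn, Il18, Il18bp, Zbp1, Casp8 and Gbp5 in each mouse by group, with the group mean as a line and mice numbered 4 as open diamonds. Il1b lies at 11.60 to 32.54 FPKM in colitis mice and at 1.03 FPKM or less in normal mice, while the Il18 groups overlap.

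Of the genes that lead from lipopolysaccharide and interferon to caspase-11, 7 of 12 tested were higher in colitis mice at the unadjusted limit and 1, Irf2, was lower (−0.80). The guanylate-binding proteins, which coat bacteria and expose their lipopolysaccharide, were all 4 among the higher ones, Gbp2 at 2.12, Gbp3 at 1.82, Gbp5 at 2.15 and Gbp7 at 0.97 on the log2 scale. The others were Irf7 (1.16), Tlr4 (0.95) and Cd14 (1.23), and no gene of this list passed the adjusted limit without a block. Gbp5 had 1.13, 1.21 and 1.87 FPKM in the normal group and 4.11, 7.74 and 8.35 FPKM in the colitis group. With BBR it had 1.15, 5.81 and 2.13 FPKM, overlapping with both. In the fit without a block it was the only gene of the list below colitis mice at the unadjusted limit (−1.36, limma adjusted p = 0.637). In the mice numbered 1 to 3 alone 0 genes of the list were, and with the replicate block 4 were. Over all tested genes, 951 and 1376 were lower at that limit in these 2 fits. Of the inhibitors, 4 of 6 were tested and Serpinb1a, which restrains inflammatory caspases, was higher in colitis mice (0.90, limma adjusted p = 0.191). The calls of the lists in colitis depended on whether the mice numbered 4 were set apart. With a term for them, which raised the calls over all tested genes from 165 to 1412, 5 genes of the lipopolysaccharide and interferon list were higher and 1 lower past the adjusted limit, beside 2 sensors (Zbp1 and Nlrc4), 4 cytokine or receptor genes (the 3 above and Il1r2) and 1 inhibitor (Serpinb1a), all higher. With the replicate block, which gave 734 calls over all genes, 6 genes of the lipopolysaccharide and interferon list and 4 of the cytokine list were higher, and 1 sensor was higher (Zbp1) and 1 lower (Txnip). In the mice numbered 1 to 3 alone, with 804 calls over all genes, 2 sensors (Zbp1 and Mefv) and 4 cytokine or receptor genes were higher, and 1 gene of the lipopolysaccharide list was higher (Irf7) and 1 lower (Irf2). Quantile normalization added 1 higher gene, Gbp5, to that list. In normal mice receiving BBR, no gene of the 6 lists reached the unadjusted limit in the fit over all mice without a block. With quantile normalization Irf8 did (−0.88), among 361 of all tested genes. With the term for the mice numbered 4 Nlrc4 did (0.64), among 372. With the replicate block, Il18bp (1.32) and Nlrc4 (0.64) were higher at that limit and Irf8 (−0.85) lower (limma adjusted p = 1 for each), no member reached it, and the genes at that limit over the whole table went from 208 to 392.

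The genes whose log2 values ran closest to a member over the 12 mice were found for the 9 members with a mean of at least 0.5 FPKM, by Pearson r as a description. For Gsdmd they were Dmgdh (0.987), Ly6g2 (0.982) and Gml (0.98), and the highest of another member with Gsdmd was Casp4 at 0.905. Gsdmc3 ran closest to Slain2 (0.985), Casp4 to Etnppl (0.964), Pycard to 2210016F16Rik (0.964) and Gsdmc2 to Kitl (0.97). Gsdmc2 and Gsdmc4 had r = 0.949 with each other, though they share reads. The 12 points of each r share 4 groups and the set of mice numbered 4, and the nearest genes were picked from 11943 genes with a mean of at least 1 FPKM.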

How the data were processed

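Per the study's methods, the authors filtered single-end reads of 50 bases with SOAPnuke, aligned them with Bowtie2 2.2.5 and estimated expression with RSEM 1.2.12. The submitters' notes name the mm9 build, and the labels name another library kit than the methods. The deposited values are read as FPKM, inferred from the values, and TPM of a partial table cannot be told apart.

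The members and lists were chosen with earlier results of these data known. Genes with a mean of at least 0.1 FPKM (15315) entered limma 3.58.1 (R 4.3.3) as log2(FPKM + 0.1), in 1 model of the 4 group means over all 12 mice and with a trended prior. P-values were adjusted by Benjamini-Hochberg over all tested genes. Single members were also given an exact two-sided permutation test. Nothing in the labels says more of how mice were housed or pooled, so p-values measure the spread between these samples. All 10 members, the pathway genes past a limit, and Il1b, Il18, Casp8 and Gsdme were named by rule. Of the pathway lists, 2 genes are not reported here and are left out of the lists' counts. The fit was tested on simulated data.

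Alternatives were a pseudocount of 1 or 0.01 FPKM, a filter at 1 FPKM or none, quantile normalization, median centring, no trend, the compared groups alone, a block for the replicate number, a block that sets the mice numbered 4 against the rest, the other 8 mice by themselves, and leaving out each mouse. Replicate numbers paired the samples only in normal with BBR against normal, where deviations of the 3 same-numbered pairs correlated at 0.29, 0.109 and 0.657 (mouse 1 of one group and 3 of the other correlated at 0.456 and 0.366, above their own numbers), and the block changed no call past the adjusted limit there. Depth was estimated from steps of low values of 1208 single-transcript genes, and the worth of 3 reads covers counting error only. Promoters came from RefSeq (7 of the 10 members matched), and coding sequences from GENCODE. Sequences were not lifted to mm9.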

Additional observations from a re-analysis of the deposited data

Results flagged for a closer look

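The BBR difference in Nlrp3 was larger in colitis mice than in normal mice by −1.85 on the log2(FPKM + 0.1) scale (standard error 0.63), a test of the difference itself that reached the unadjusted limit and did not pass adjustment over all genes (limma adjusted p = 1). BBR gave −1.69 in colitis mice, lower in 3 of 3 mice, and 0.17 in normal mice, where the groups overlapped. All values outside the colitis group were within 0.02 to 0.13 FPKM, an estimated 1.2 to 9.5 reads, so a fall with BBR in normal mice could hardly be seen.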

How the results depend on the processing

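In colitis against normal, the number of members past the adjusted limit went from 0 to 1 with quantile normalization (Nlrp3), in the compared groups alone (Gsdmd) and in the mice numbered 1 to 3 alone (Gsdmd), and to 2 (Nlrp3 and Gsdmd) with the number-4 block and with the replicate block. The replicate numbers pair only 2 mice in that comparison and in the BBR comparison in colitis, and the replicate block raised the genes called in colitis from 165 to 734. That count was 1412 with the number-4 block, 804 in the mice numbered 1 to 3 alone, 488 in the compared groups alone, 258 with quantile normalization, 91 with a pseudocount of 0.01 and 71 with a filter at 1 FPKM, and 11 to 211 with 1 mouse left out. Members past the limit stayed at 0 under all alternatives run for the other comparisons and the interaction.

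Of 31 member fold changes, 14 changed sign somewhere, none larger than 0.92 in size, and the cause was not tested. In colitis, Pycard became 0.18 with median centring and 0.24 with the replicate block, and leaving out a mouse gave −0.54 to 0.40 for Pycard and −0.21 to 0.29 for Casp1. For BBR in colitis, Gsdmc3 was −0.15 in the mice numbered 1 to 3 alone, and Gsdmc4 0.05 with median centring and 0.02 with quantile normalization. Leaving out a mouse there gave −0.34 to 1.57 for Nlrp6, −0.21 to 0.30 for Aim2, −0.05 to 0.45 for Casp1, −0.81 to 0.14 for Casp4, −0.75 to 0.02 for Gsdmd, −1.52 to 0.06 for Gsdmc2, −0.81 to 0.78 for Gsdmc3 and −0.54 to 0.35 for Gsdmc4. In normal mice, Nlrp6 was 0.12 in the mice numbered 1 to 3 alone, and Gsdmd 0.02 with quantile normalization and 0.02 with median centring. Leaving out a mouse there gave −0.04 to 0.43 for Nlrp3, −0.20 to 0.15 for Nlrp6, −0.06 to 0.05 for Gsdmd and −0.17 to 0.22 for Gsdmc2.

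Median centring moved the median of all tested genes in colitis from −0.32 to 0.02, and Nlrp3 and Gsdmd were then 2.13 and 1.66. Among genes at the unadjusted limit, the share that was higher went from 18.6% to 46.1% for BBR in colitis and from 28.8% to 62.5% for the interaction. A filter at 1 FPKM leaves Nlrp3 out. The shorter length correction in the mice numbered 4 would by itself make a member's FPKM 1.05 to 1.18 times higher in the other mice at equal reads, on its longest annotated transcript.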

Other observations

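Gsdma3, a gasdermin gene of skin and of the upper gut that is no member, was read in the mice numbered 4 of every group and hardly elsewhere. Its values were 0.45, 0.33, 0.51 and 0.43 FPKM in the mice numbered 4 of the normal, normal with BBR, colitis and colitis with BBR groups, and 0.04 FPKM or less in the 8 mice numbered 1 to 3. Squamous markers did not exceed 7.62 FPKM in sum in any mouse. The related Gsdmc, beside the 3 gasdermin C members, was at 0.30 FPKM or less in all 12 mice, where the lowest Gsdmc4 value was 198.35 FPKM.

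Il18bp was also higher in normal mice receiving BBR (9.14, 21.26 and 8.04 FPKM) than in every normal mouse (3.77 to 5.25 FPKM), without passing the unadjusted limit in the fit without a block.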
